A study of Mus musculus with 8 samples.

Results

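The Hox genes of paralog groups 4 and 5 are 7 genes of the mouse, Hoxa4, Hoxb4, Hoxc4 and Hoxd4 of group 4 and Hoxa5, Hoxb5 and Hoxc5 of group 5. They were taken by symbol from a table of read counts for 27179 genes, in which they made up 7 of the 39 Hox genes. All 7 were present and all 7 passed the filter on low counts. Whole spines of mouse embryos were collected at E18.5, shortly before birth, and profiled by mRNA sequencing. The mutants carried Pax1-Enh KO, the removal of a stretch of the genome near Pax1 that the series title calls sex-associated and links to adolescent idiopathic scoliosis, and the controls were wild type (WT). There were 4 groups of 2 libraries each, male KO, male WT, female KO and female WT, and the sex stands in the sample titles. The labels used here give no strain, no number of founder lines and no statement that replicates came from separate embryos, so p-values measure only the spread between these libraries.

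Hox genes encode homeodomain transcription factors that lie in clusters on separate chromosomes, and their order along a cluster matches the order of their anterior limits along the body. Groups 4 and 5 begin in the hindbrain and neck. In mouse, their loss changes the identity of cervical and upper thoracic vertebrae, and Hox5 genes also act in the lung, in the phrenic motor neurons that drive the diaphragm, and at the shoulder. HOX proteins of these groups bind DNA with PBX and MEIS cofactors, and retinoic acid and CDX factors are known inputs to their early transcription.

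Total counts ran from 59722279 to 67575728 in KO libraries and from 35181518 to 48021848 in WT libraries, so every KO library was deeper than every WT library and depth cannot be told apart from genotype. Mitochondrial genes took 4.56% to 15.6% of counts in KO libraries and 5.55% to 20.9% in WT libraries. Xist and 4 Y-linked genes separated the libraries by their labelled sex. Pax1 itself, whose coding exons are not described as deleted, had 18.9 to 30.4 CPM in KO libraries and 17.0 to 27.0 CPM in WT libraries (CPM, the read count relative to the library total, scaled by the trimmed mean of M-values), so its level does not check the genotype labels. The tissue label was matched by cartilage, muscle and neuron genes. Summed CPM of the 8 cartilage markers was 10723 to 27145 in KO libraries and 5284 to 11440 in WT libraries, and no cartilage, muscle or neuron marker was at 0 in any library. Libraries also stood apart in markers of neighbouring organs. The 5 pancreas markers summed to 1770 CPM in female WT 1, against 1.04 to 5.96 CPM in the other 7 libraries. The 5 adrenal and kidney markers summed to 221 CPM in female KO 2, 206 CPM in male WT 2 and 104 CPM in female WT 1, against 2.99 to 5.52 CPM elsewhere. Nearly all of the high sums came from the adrenal genes Star and Cyp11b1, with 125 and 95.7 CPM in female KO 2. The kidney genes Umod and Slc34a1 had at most 2 counts in any library. The 5 liver markers summed to 870 CPM in male KO 1 and to 1012 and 850 CPM in the male WT pair, against 29.5 to 122 CPM in the other 5 libraries. A bulk library cannot tell fewer cells of one axial level from less RNA per cell.

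Per kilobase of transcript, Hoxa5 was the most abundant of the 7, with a mean of 9.09 ± 4.93 CPM per kb (SD over the 8 libraries, as for the next values). Hoxc4 followed with 5.85 ± 2.55 CPM per kb, Hoxb5 with 4.59 ± 1.58 CPM per kb and Hoxa4 with 3.92 ± 2.28 CPM per kb. Hoxb4 had 2.35 ± 0.49 CPM per kb, Hoxc5 had 2.20 ± 1.27 CPM per kb and Hoxd4 had 1.59 ± 0.46 CPM per kb. Every step between neighbours in this order was smaller than the larger SD of the pair. The lowest place by group mean differed with genotype. Hoxc5 was lowest in KO groups, with means of 0.635 CPM per kb in male KO and 1.71 CPM per kb in female KO. The female KO libraries did not agree on this, since in female KO 2 Hoxd4 (1.52 CPM per kb) lay below Hoxc5 (1.58 CPM per kb). Hoxd4 was lowest in WT groups, with means of 1.94 CPM per kb in male WT and 1.38 CPM per kb in female WT. Lengths were those of 1 annotated transcript per gene, which may not be the one used in the spine.

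Positions are given from RefSeq on GRCm38.p6, the assembly behind the mm10 name in the submitters' processing notes. Hoxa4 lies at chr6:52189682-52191703 and Hoxa5 at chr6:52201754-52204587, both on the minus strand. Hoxb5 lies at chr11:96303512-96306121 and Hoxb4 at chr11:96318267-96321638, both on the plus strand. Hoxc5 lies at chr15:103014008-103017429 and Hoxc4 at chr15:103018097-103036856, both on the plus strand, and Hoxd4 lies at chr2:74721978-74729160 on the plus strand. Several spans are shared with other genes. Hoxa4 and Hoxa5 lie within the span of a long Hoxa3 model, Hoxb4 within that of Hoxb3 and Hoxd4 within that of Hoxd3. Hoxa5 also lies opposite the antisense RNA Hoxaas3, which had 10 to 45 counts a library. Whether the counting used strand, and how reads in shared exons were assigned, is not given in the sources used here, so reads could pass between these pairs.

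RefSeq promoters, from 250 bases before to 50 bases after a gene start on GRCm38.p6, were at hand for 4 of the 7 genes, and they are shown because all 7 genes were lower in male KO spines, as given further on. Hoxa4, Hoxb5 and Hoxc5 had no entry. Each is written 5′ to 3′ on the gene's own strand. Capitals mark matches on either strand to AGGTCA (the half-site of retinoid receptors), TTTATNG (a CDX site), TATAAA (the TATA box) and 2 strings of 12 bases, CCCCTCCCCATC and TTGCCATAATGG, that pairs of these promoters share. The windows are chr11:96318017-96318316 for Hoxb4, chr15:103034145-103034444 for Hoxc4, chr2:74721728-74722027 for Hoxd4, all on the plus strand, and chr6:52204538-52204837 on the minus strand for Hoxa5.
Hoxb4: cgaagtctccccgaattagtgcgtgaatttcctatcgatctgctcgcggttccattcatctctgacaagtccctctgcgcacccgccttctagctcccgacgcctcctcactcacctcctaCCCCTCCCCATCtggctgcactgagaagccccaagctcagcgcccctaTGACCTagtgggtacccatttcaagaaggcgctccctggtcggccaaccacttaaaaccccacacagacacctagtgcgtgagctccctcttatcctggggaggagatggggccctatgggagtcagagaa
Hoxc4: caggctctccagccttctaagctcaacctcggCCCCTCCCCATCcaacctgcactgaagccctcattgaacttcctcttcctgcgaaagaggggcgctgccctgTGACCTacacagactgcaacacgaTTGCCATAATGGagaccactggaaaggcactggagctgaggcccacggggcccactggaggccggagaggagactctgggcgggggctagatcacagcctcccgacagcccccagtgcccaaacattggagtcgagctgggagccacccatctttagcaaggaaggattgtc
Hoxd4: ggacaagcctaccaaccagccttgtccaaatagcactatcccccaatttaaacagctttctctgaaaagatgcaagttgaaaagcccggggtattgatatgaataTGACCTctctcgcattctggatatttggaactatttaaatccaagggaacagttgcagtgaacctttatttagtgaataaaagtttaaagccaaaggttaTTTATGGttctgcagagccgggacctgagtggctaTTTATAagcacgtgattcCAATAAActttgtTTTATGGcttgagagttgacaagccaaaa
Hoxa5: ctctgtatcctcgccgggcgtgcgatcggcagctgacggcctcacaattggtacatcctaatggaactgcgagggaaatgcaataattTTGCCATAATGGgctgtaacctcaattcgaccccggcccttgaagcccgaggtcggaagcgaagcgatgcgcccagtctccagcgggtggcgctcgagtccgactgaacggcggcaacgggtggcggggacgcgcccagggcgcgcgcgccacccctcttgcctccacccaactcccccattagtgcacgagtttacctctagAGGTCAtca

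The half-site AGGTCA occurred in 4 of these 4 promoters, once in each, and in 16.3% of all 32851 RefSeq mouse promoters of the same length. In Hoxb4, Hoxc4 and Hoxd4 it reads TGACCT on the gene's strand, 81, 146 and 145 bases before the start, and in Hoxa5 it lies just after the start. TTTATNG matched 3 times in Hoxd4 and in none of the other promoters shown, and 10.9% of all promoters held it. TATAAA matched once, in Hoxd4, where it reads TTTATA on the gene's strand, 10 bases before the start. It was held by 13.6% of all promoters. The PBX-HOX site TGATNNAT was in 0 of the 4 promoters and in 8.85% of all promoters. The string TTGCCATAATGG was held by 2 of the 32851 promoters, those of Hoxc4 and Hoxa5. CCCCTCCCCATC was held by 30 promoters, Hoxb4 and Hoxc4 among them. GC content was 39.7% in the Hoxd4 promoter and 58.0% to 61.7% in the other promoters shown, with a median of 52.7% over all promoters. The Hoxc4 window lies inside the gene's longest RefSeq span. These matches describe letters in a window, and the strings were found by searching these promoters against each other.

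In males, all 7 genes were lower in KO than in WT spines, with no overlap between the groups for any of them. The same held for 23.9% of all 18104 genes tested, which had both KO libraries below both WT libraries. All 7 had an unadjusted p under 0.05 and a lower KO level by edgeR's quasi-likelihood test, as did 7.29% of all genes. None passed at an adjusted p of 0.05 by edgeR, where 0.00% of genes passed, or by limma voom. DESeq2 called 4 of them lower, Hoxa4, Hoxc4, Hoxa5 and Hoxc5, against 2.66% of all genes called in either direction. The median log2 fold change was -1.53 over the 7 genes and -0.06 over all genes. The rest of the account of males gives the genes in turn, group 5 and then group 4.

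Hoxc5, the HoxC gene of group 5, had 1.63 and 2.08 CPM in male KO libraries, against 8.88 and 12.64 CPM in male WT libraries. Both KO values were less than any other value of this gene in the series. Its log2 fold change was -2.54 (SE 0.29), a ratio of 0.172 with a 95% interval of 0.109 to 0.272, and it ranked 1 of 18104 genes by p (adjusted p = 0.179 by edgeR, 8.5e-10 by DESeq2). Hoxa5, which in mouse is needed for lung and respiratory tract formation and patterns the neck vertebrae, had 9.88 and 9.16 CPM in male KO libraries, against 21.28 and 36.24 CPM in male WT libraries. Male WT 2 held the highest value of Hoxa5 in the series, and the groups did not overlap. Its log2 fold change was -1.59 (SE 0.30; adjusted p = 0.190 by edgeR, 0.00135 by DESeq2). Hoxb5 had 7.998 and 5.41 CPM in male KO libraries, against 11.12 and 14.88 CPM in male WT libraries. The male KO libraries differed from each other more for Hoxb5 than for the other genes, and still both lay below WT. Its log2 fold change was -0.95 (SE 0.28; adjusted p = 0.253 by edgeR, 0.113 by DESeq2).

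Hoxc4 had 6.85 and 5.93 CPM in male KO libraries, against 17.48 and 20.65 CPM in male WT libraries. Neither pair spread far and they lay well apart. The log2 fold change was -1.58 (SE 0.22), a ratio of 0.335 with a 95% interval of 0.237 to 0.475, rank 5 by p (adjusted p = 0.179 by edgeR, 2.0e-05 by DESeq2). Hoxa4 had 3.14 and 2.68 CPM in male KO libraries, against 9.37 and 7.45 CPM in male WT libraries. Its ratio of 0.346 was close to those of Hoxc4 and Hoxa5, with a log2 fold change of -1.53 (SE 0.34; adjusted p = 0.221 by edgeR, 0.00839 by DESeq2). Hoxd4, a classical target of retinoic acid in the hindbrain, had 2.94 and 2.73 CPM in male KO libraries, against 4.49 and 5.44 CPM in male WT libraries. Hoxb4 had 4.56 and 4.42 CPM in male KO libraries, against 7.57 and 7.04 CPM in male WT libraries. These 2 genes had the smallest differences of the 7 in males, with log2 fold changes of -0.81 (SE 0.31) for Hoxd4 and -0.70 (SE 0.24) for Hoxb4, and neither passed in edgeR (adjusted p = 0.298 and 0.275) or DESeq2 (0.245 and 0.201).

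**Figure D1:**
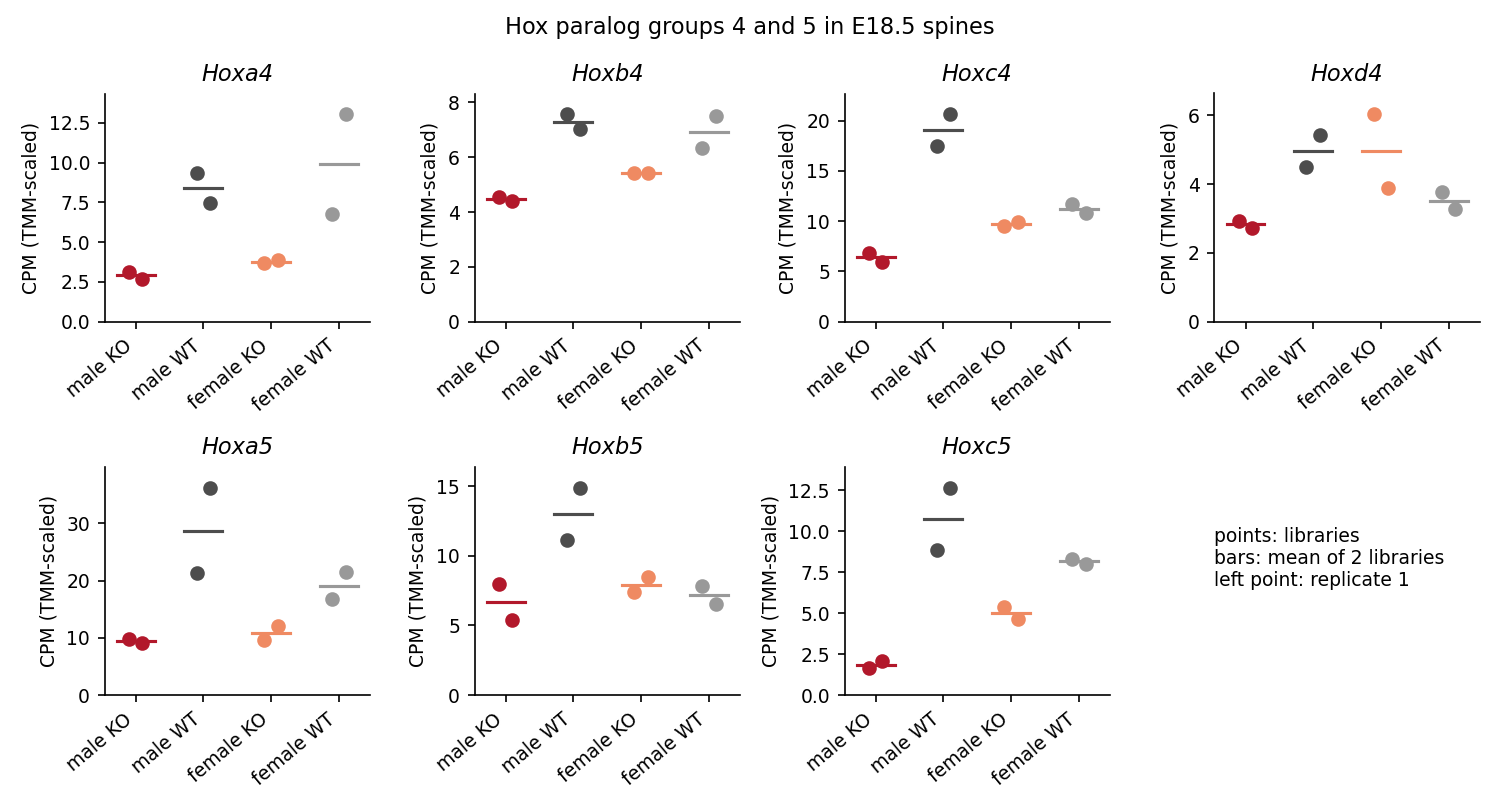
Level of each of the 7 genes in the 8 libraries. The y axis is CPM from 0, each point is 1 library, bars are means of 2 libraries, and KO groups stand left of their WT groups. In males every KO point lies below every WT point, as for Hoxc5 with 1.63 and 2.08 CPM in KO against 8.88 and 12.64 CPM in WT.

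The differences in males fell into 2 ranges by cluster. The 4 HoxA and HoxC genes had log2 fold changes between -2.54 and -1.53, and the 3 HoxB and HoxD genes had log2 fold changes between -0.95 and -0.70. In females the order was looser, with the 4 HoxA and HoxC genes between -1.39 and -0.22 and the 3 HoxB and HoxD genes between -0.35 and 0.49. This grouping was made after the values were seen and has no test of its own. It was not seen throughout the neighbouring paralog groups in males. Hoxa6 (0.04) and Hoxa7 (-0.33) lay above Hoxb6 (-1.08) and Hoxb7 (-1.09), and Hoxa2 and Hoxb2 were both at -0.80. Hoxc6 (-1.24) and Hoxc8 (-1.67) did lie below Hoxb6 and Hoxb8 (-1.09).

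In females, 5 of the 7 genes had both KO libraries below both WT libraries, as had 26.2% of all genes, and Hoxd4 had both KO libraries above. Hoxa4, Hoxa5 and Hoxc5 had an unadjusted p under 0.05 with a lower KO level by edgeR, as had 4.74% of all genes. None passed at an adjusted p of 0.05 by edgeR, where 0.00% of genes passed, or by limma voom. DESeq2 called only Hoxa4 of the 7, against 0.811% of the genes to which it gave an adjusted p. The median log2 fold change was -0.35 over the 7 genes and 0.03 over all genes.

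Hoxa4 had 3.68 and 3.87 CPM in female KO libraries, against 6.77 and 13.05 CPM in female WT libraries. The KO libraries lay close together and below both WT libraries, which differed widely. Its log2 fold change was -1.39 (SE 0.34; adjusted p = 0.532 by edgeR, 0.0302 by DESeq2), and without female WT 2 it was -0.85. Hoxa5 had 9.60 and 12.06 CPM in female KO libraries, against 16.78 and 21.50 CPM in female WT libraries. The log2 fold change of Hoxa5 was -0.82 (SE 0.30) with no overlap. Hoxc5 had 5.36 and 4.63 CPM in female KO libraries, against 8.32 and 8.01 CPM in female WT libraries. Its log2 fold change of -0.71 (SE 0.27) came with a ratio of 0.611, where males had 0.172. Hoxb4 had 5.41 and 5.42 CPM in female KO libraries, against 6.32 and 7.51 CPM in female WT libraries. Hoxc4 had 9.52 and 9.88 CPM in female KO libraries, against 11.74 and 10.78 CPM in female WT libraries. Neither pair overlapped, and the 95% intervals of both log2 fold changes included 0, with -0.89 to 0.18 for Hoxb4 and -0.71 to 0.28 for Hoxc4. Hoxd4 had 6.03 and 3.89 CPM in female KO libraries, against 3.78 and 3.27 CPM in female WT libraries. Hoxb5 had 7.39 and 8.46 CPM in female KO libraries, against 7.85 and 6.51 CPM in female WT libraries. The Hoxd4 groups were split by a narrow gap, and the Hoxb5 groups overlapped. Log2 fold changes were 0.49 (95% interval -0.20 to 1.19) for Hoxd4 and 0.14 (-0.50 to 0.78) for Hoxb5.

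**Figure D2:**
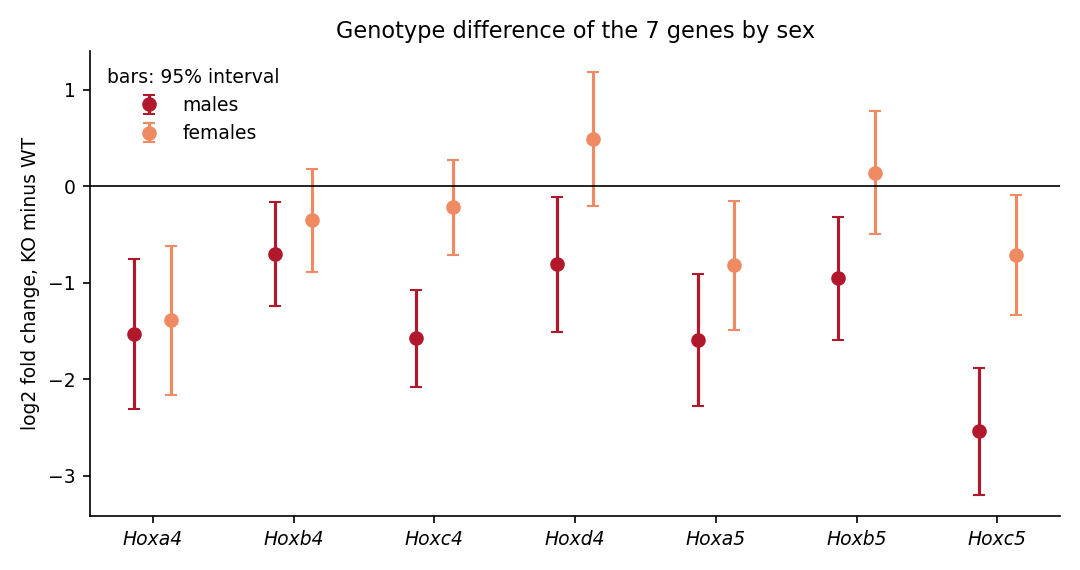
Log2 fold change of KO minus WT for each gene, males left of females. Points are edgeR estimates and bars are 95% intervals. All 7 male points lie below 0, from -2.54 for Hoxc5 to -0.70 for Hoxb4, and the female points run from -1.39 for Hoxa4 to 0.49 for Hoxd4.

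Over both sexes, with sex as a term, 5 genes had all 4 KO libraries below all 4 WT libraries, Hoxa4, Hoxb4, Hoxc4, Hoxa5 and Hoxc5, as had 1.63% of all genes. The same 5 had an unadjusted p under 0.05 with a lower KO level by edgeR, as had 3.99% of all genes. None passed by edgeR, where 0.00% of genes passed, or by limma voom, and DESeq2 called Hoxa4, Hoxa5 and Hoxc5 lower, against 0.779% of all genes called. Hoxa4 had a log2 fold change of -1.46 (SE 0.24), rank 4 by p (adjusted p = 0.454 by edgeR, 3.5e-05 by DESeq2). It was the gene whose difference was most alike in the sexes. Hoxc5 had -1.61 (SE 0.38; DESeq2 adjusted p = 0.00437), Hoxa5 -1.21 (SE 0.25; DESeq2 adjusted p = 0.00336), Hoxc4 -0.90 (SE 0.28) and Hoxb4 -0.53 (SE 0.18). Hoxb5 and Hoxd4, at -0.41 and -0.16, had intervals that included 0. This comparison uses the same libraries as those by sex and adds no independent evidence.

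The KO difference was larger in the negative direction in males for all 7 genes, since female minus male KO effects were all positive, from 0.14 for Hoxa4 to 1.83 for Hoxc5 on the log2 scale, with a median of 1.1 against 0.03 over all genes. Hoxc5 (1.83, SE 0.39), Hoxc4 (1.36, SE 0.31), Hoxd4 (1.30, SE 0.43) and Hoxb5 (1.1, SE 0.40) had an unadjusted p under 0.05 by edgeR. A positive difference with such a p was found in 9.61% of all genes tested. None of the 7 passed by edgeR (smallest adjusted p = 0.243), where 0.00% of genes passed, or by limma voom. DESeq2 called Hoxc5 (adjusted p = 0.0175) and Hoxc4 (adjusted p = 0.0424), against 2.04% of the genes to which it gave an adjusted p. For Hoxa4 the difference of 0.14 had a 95% interval of -0.93 to 1.22. The positive direction was not particular to these 7 genes. Groups 6 to 8 had a median of 1.48 (7 of 8 positive) and groups 1 to 3 had 0.84 (8 of 8 positive). Groups 9 and 10 had a median of 0.36 (7 of 7 positive) and groups 11 to 13 had -2.47 (8 of 8 negative).

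Between the WT groups, female minus male log2 differences were negative for 6 of the 7 genes, with a median of -0.49 against -0.02 over all genes. Hoxb5 averaged 7.18 ± 0.95 CPM in female WT and 13 ± 2.66 CPM in male WT (SD, n = 2 each), a difference of -0.86 (SE 0.28). Hoxc4 averaged 11.26 ± 0.68 CPM in female WT and 19.06 ± 2.24 CPM in male WT, a difference of -0.76 (SE 0.22). Of the 7, only these 2 had a negative difference with an unadjusted p under 0.05 by edgeR, as had 15.7% of all genes. Neither passed by edgeR (adjusted p = 0.127 for Hoxb5 and 0.113 for Hoxc4), where 0.00552% of all genes passed, and DESeq2 called none of the 7, against 12.1% of the genes to which it gave an adjusted p. Hox groups 1 to 3, 6 to 8 and 9 and 10 had negative medians of -0.44, -0.68 and -0.23. Groups 11 to 13 had a positive one of 1.59. Marker lists of other tissues also differed between the WT groups, in both directions. Lower in female WT were 5 of 5 liver, 7 of 7 neuron and 8 of 9 lung markers (medians -2.65, -1.19 and -4.96). Higher there were 5 of 5 pancreas and 10 of 11 adipocyte markers (medians 10.9 and 1.08). The part of these tissues in the Hox differences between WT groups was not tested. The WT groups enter both the sex difference in WT and the female minus male KO effect, so these values are not independent.

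Ratios between genes of 1 paralog group within a library do not depend on depth or scaling. Of the 9 such ratios, 7 did not overlap between genotypes in males, 7 did not in females, and 5 did not over all 8 libraries. In each sex 6 of the 7 were lower in KO. The 5 all set a HoxA or HoxC gene over a HoxB or HoxD gene, and all were lower in KO. Most of the 9 ratios were set up in that form. The 5 share genes, so they are not 5 separate observations. With 2 libraries against 2, separation is common. In males 23.9% of single genes, and in females 26.2%, had both KO libraries below both WT libraries. These shares count the lower direction alone, while the 7 in each sex count both directions. Over all 8 libraries, 1.63% of single genes had every KO library below every WT library. The share among ratios of other gene pairs was not computed. Hoxa4 over Hoxb4 was 0.688 and 0.605 in the male KO libraries and 0.680 and 0.714 in the female KO libraries, against 1.24 and 1.06 in the male WT libraries and 1.07 and 1.74 in the female WT libraries. Thus the read count of Hoxa4 was below that of Hoxb4 in 4 of 4 KO libraries and above it in 4 of 4 WT libraries. Hoxa5 over Hoxb5 was 1.24 and 1.69 in the male KO libraries and 1.30 and 1.43 in the female KO libraries, against 1.91 and 2.44 in the male WT libraries and 2.14 and 3.302 in the female WT libraries. Hoxc5 over Hoxb5 was 0.204 and 0.385 in the male KO libraries and 0.725 and 0.547 in the female KO libraries, against 0.798 and 0.850 in the male WT libraries and 1.06 and 1.23 in the female WT libraries. The ratio was lower in KO in both sexes, with the lowest values in male KO. Hoxc4 over Hoxb4 separated the genotypes in males, with 1.34 to 1.501 in KO against 2.31 to 2.93 in WT, and overlapped in females, with 1.76 to 1.82 in KO against 1.44 to 1.86 in WT. Hoxc4 over Hoxd4 was 1.58 to 2.54 in KO libraries and 3.11 to 3.90 in WT libraries.

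**Figure D3:**
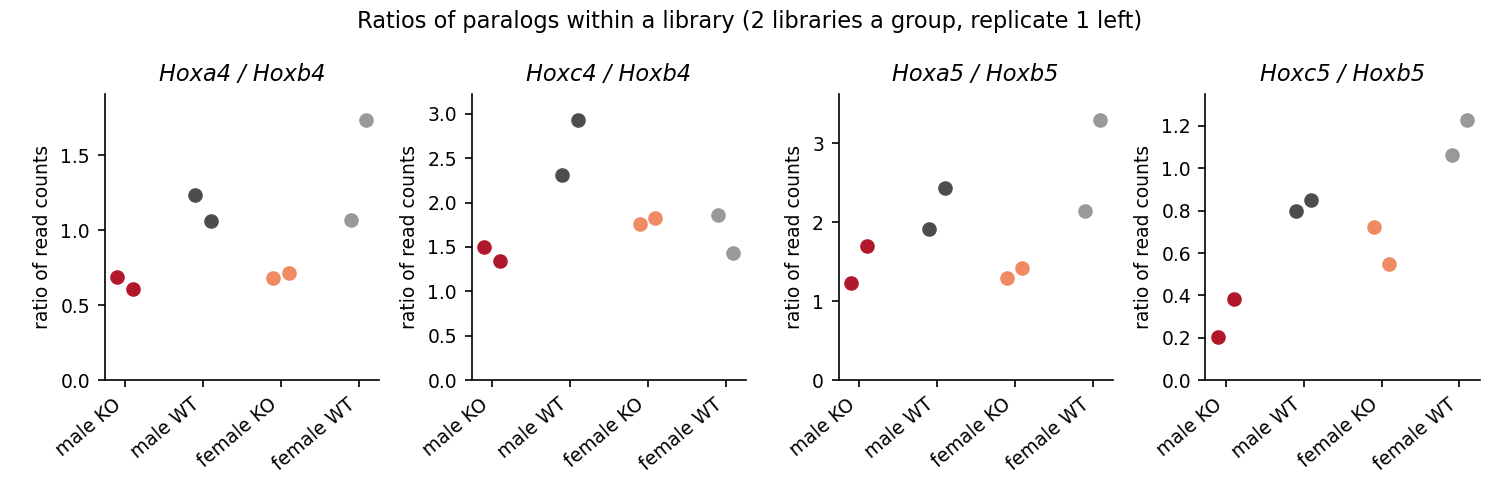
Ratio of read counts of a HoxA or HoxC gene to the HoxB gene of its paralog group, 1 point a library, y axes from 0. KO libraries lie below WT libraries in 3 of the 4 panels, such as Hoxa4 over Hoxb4 with 0.605 to 0.714 in KO against 1.06 to 1.74 in WT, and overlap in females for Hoxc4 over Hoxb4.

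Set against the other Hox genes, the 7 held 8.80% and 8.20% of all Hox counts in male KO libraries and 8.30% and 9.06% in female KO libraries, against 12.8% and 14.6% in male WT libraries and 12.8% and 17.3% in female WT libraries. The KO and WT libraries did not overlap in either sex. Groups 9 and 10 lay the other way, with 35.9% to 45.0% of Hox counts in KO libraries and 30.0% to 31.2% in WT libraries. Groups 1 to 3 held 10.1% to 11.1% in KO libraries and 11.4% to 12.95% in WT libraries. Shares add up to the whole, so a higher share of 1 set lowers the others.

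**Figure D4:**
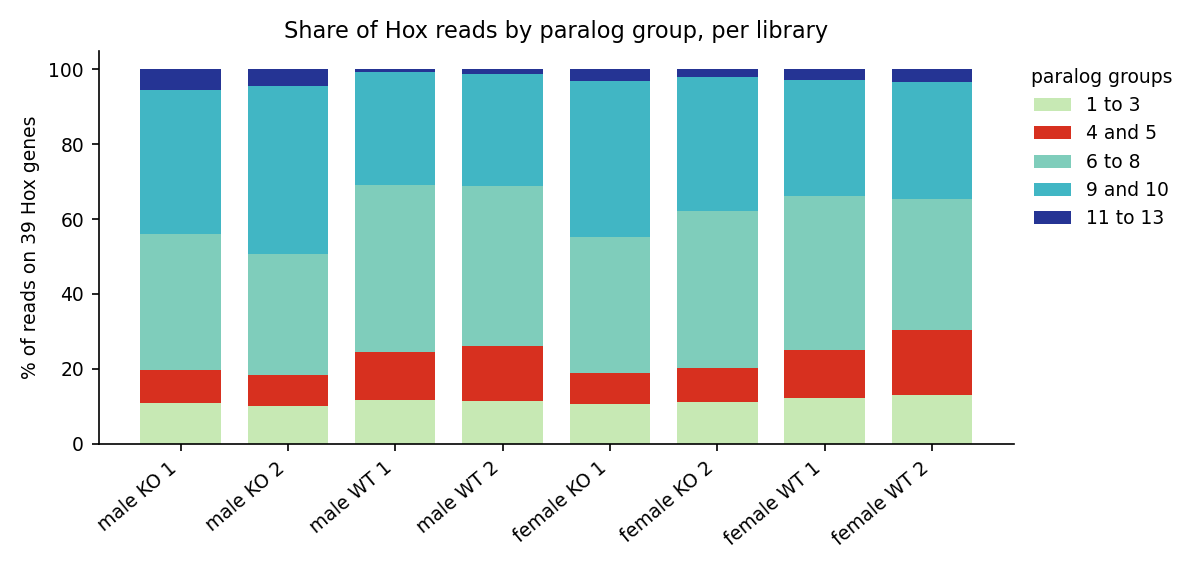
Percent of the reads on 39 Hox genes that fell on each range of paralog groups, 1 bar a library, with KO bars left of the WT bars of the same sex. The red segment, groups 4 and 5, spans 8.20% to 9.06% in KO libraries and 12.8% to 17.3% in WT libraries.

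In males the median log2 fold change of groups 4 and 5, -1.53, was the most negative of the 5 ranges of paralog groups. It was -0.83 for the 8 genes of groups 1 to 3, -1.08 for the 8 of groups 6 to 8, 0.10 for the 7 of groups 9 and 10, and 2.12 for the 8 tested of groups 11 to 13. In females it was -0.35 for groups 4 and 5, -0.20 for groups 1 to 3, 0.29 for groups 6 to 8, 0.66 for groups 9 and 10, and -0.27 for groups 11 to 13. Some genes of groups 11 to 13 were near the floor. In male WT 1, Hoxc13 and Hoxd13 had 0 counts, Hoxb13 had 1 and Hoxd12 had 2. Among the neighbours on the anterior side, Hoxb3 had a male log2 fold change of -0.98 (DESeq2 adjusted p = 0.0395) and a female one of 0.47. On the posterior side, Hoxc6 had -1.24 in males (DESeq2 adjusted p = 0.00600) and 0.32 in females, and Hoxc8 had -1.67 in males (DESeq2 adjusted p = 0.00210). No Hox gene passed in edgeR. In females all 8 genes of groups 6 to 8 had positive log2 fold changes, while 5 of the 7 of groups 4 and 5 had negative ones.

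**Figure D5:**
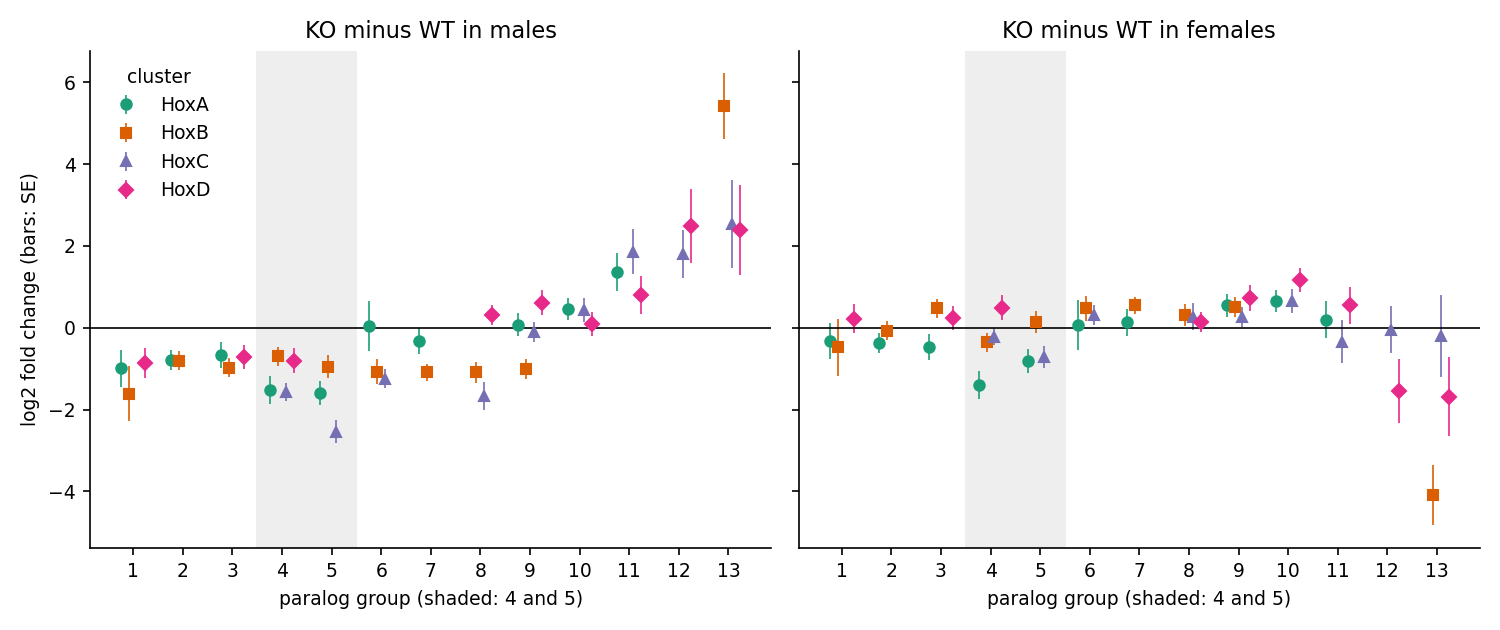
Log2 fold change of KO minus WT for the 38 tested Hox genes by paralog group, with males on the left and females on the right, bars showing SE, and groups 4 and 5 shaded. The male points of the shaded genes run from -2.54 to -0.70, and those of groups 11 to 13 lie above 0, up to 5.42 for Hoxb13. Hoxb13 had 1 count in each male WT library, and its female point lies at -4.09.

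Markers of other tissues moved with genotype beside these genes. The 11 adipocyte markers summed to 305 and 564 CPM in the male KO pair and 516 and 290 CPM in the female KO pair, against 5535 and 903 CPM in the male WT pair and 904 and 5851 CPM in the female WT pair. None of the 11 was at 0 in any library, and Ucp1, which marks brown fat, had 1.45 to 10.3 CPM in KO libraries and 31.7 to 889 CPM in WT libraries. Within WT pairs, the summed level of the 7 genes was 80.2 CPM in male WT 1, with the high adipocyte sum, and 104 CPM in male WT 2. It was 70.6 CPM in female WT 2, with the high adipocyte sum, and 61.6 CPM in female WT 1. Male WT 1 and female WT 2 were then left out, a choice made after seeing the data. In that fit all 7 genes had negative log2 fold changes in males, with a median of -1.30. The median was -0.29 in females and -1.01 over both sexes. The WT libraries kept, at 903 and 904 CPM, had higher adipocyte sums than every KO library. The adipocyte difference between genotypes thus remained in that fit. The 7 neuron markers summed to 467 and 437 CPM in male KO, against 572 and 831 CPM in male WT, and to 480 and 587 CPM in female KO, against 342 and 279 CPM in female WT. Their direction was thus opposite in the sexes. The 10 skeletal muscle markers summed to 28956 and 35936 CPM in the male KO pair and 28494 and 20453 CPM in the female KO pair, against 28632 and 12997 CPM in the male WT pair and 15706 and 22348 CPM in the female WT pair. Of the 10, all had positive log2 fold changes in males and 8 had them in females, and DESeq2 called 3 higher in males and 2 in females. The 8 cartilage markers, whose summed range is given above, all had positive log2 fold changes in males and 7 had them in females. By edgeR, 3 of the 8 had an unadjusted p under 0.05 in males, 1 in females and 6 over both sexes. Of all 18104 genes, 1364, 820 and 515 had such a p with a higher KO level. The 9 lung markers summed to 34.6 CPM in male WT 1, against 2.88 to 7.13 CPM in the other 7 libraries, and up to 4 of them were at 0 in a library. Of the 9, 8 had negative log2 fold changes in males (median -2.67) and 8 had positive ones in females (median 0.81). DESeq2 called 3 of them lower in males, against 2.66% of all genes in either direction, and 0 in females. The part of these tissues in the Hox values was not tested.

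Genes that act with or on Hox genes were described from lists, and none of these list genes passed in edgeR or in DESeq2 in KO against WT of either sex. Of all 18104 genes, 1320 were lower and 1364 higher in male KO at an unadjusted p under 0.05 by edgeR. In females these counts were 859 and 820. Among the 9 cofactors of the PBX, MEIS and PKNOX families, 8 had negative log2 fold changes in males and 4 in females. Meis2 had the smallest p, with -0.73 (SE 0.22) in males and 0.42 (SE 0.22) in females. Of 15 tested genes of retinoic acid synthesis, breakdown and reception, 8 had negative log2 fold changes in males and 9 in females. Crabp2 (-0.83) and Crabp1 (-0.64), which bind retinoic acid in the cell, had an unadjusted p under 0.05 in males by edgeR, and so did the receptor Rxrg (-0.77) in females. Of the 20 Polycomb and Trithorax genes, which hold Hox genes silent or active, the median was -0.04 in males and -0.16 in females. Bmi1, a Polycomb gene, had -0.88 in males and 0.64 in females. Kat6a, an activator of Hox genes, had 0.67 in males, and Cbx2, also a Polycomb gene, had -0.67 in females. Of 9 early axial regulators 5 passed the filter, and Lin28b had -0.58 in males and 0.92 in females. Of 6 tested noncoding genes of the clusters, 5 had positive log2 fold changes in males, Hoxa11os (1.64) and Hotair (1.26), both from the posterior ends, with an unadjusted p under 0.05 by edgeR. Of 10 genes that have been described as Hox4 or Hox5 targets or partners, 4 had negative log2 fold changes in each sex. In males Pcdh10 (-0.89) and Wnt2b (0.97) had an unadjusted p under 0.05 by edgeR with opposite signs, and in females Alcam (0.95) had one. The values in the other sex were 0.72 for Pcdh10 and -0.19 for Wnt2b in females and -0.18 for Alcam in males.

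The 7 genes varied together to different degrees. Pearson's r between their log2 CPM over the 8 libraries, which share genotype, depth and scaling, ran from 0.228 for Hoxa4 with Hoxd4 to 0.966 for Hoxa4 with Hoxb4, with a median of 0.738 over 21 pairs. Among 14936 genes with a mean of at least 1 CPM, the genes outside the clusters most like the mean profile of the 7 were A230045G11Rik (r = 0.966), Pdf (0.962), Zfp511 (0.936), Map3k1 (0.927), Tusc2 (0.922), Hdhd2 (0.919), Bloc1s4 (0.919) and Inafm2 (0.917). The genes least like it were Rora (-0.984), Musk (-0.980), Mylk4 (-0.975) and Slc27a6 (-0.971). Musk, a receptor kinase of the neuromuscular junction, had 12.3 and 13.4 CPM in the male KO pair and 5.72 and 6.44 CPM in the female KO pair, against 3.56 and 2.62 CPM in the male WT pair and 5.82 and 3.75 CPM in the female WT pair. By rank correlation, 5 of the 8 highest and 1 of the 4 lowest were the same genes. Of the Hox genes outside the 7, Hoxa2 (0.917) and Hoxb2 (0.892) were nearest. Taken singly, the most similar gene was Acvr1c for Hoxa4 (0.988), Sh2d7 for Hoxb4 (0.981), A230045G11Rik for Hoxc4 (0.962), Nkain4 for Hoxd4 (0.958), Hoxa2 for Hoxa5 (0.952), Camk2n2 for Hoxb5 (0.988) and Nme1 for Hoxc5 (0.964).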

How the data were processed

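The authors deposited a table of raw read counts per gene for the 8 libraries, by Entrez gene ID. The submitters' processing notes name FastQC 1.0.0, MultiQC 1.0.0, HISAT2, featureCounts and mm10, while for annotation, strand setting and multiply mapped reads nothing is given in the sources used here. Symbols came from RefSeq GRCm38.p6 for 25275 genes and GENCODE M21 for 18, and 1886 stayed unnamed. Genes with enough counts in a group (filterByExpr, minimum count 10) were tested with edgeR 4.0.16 (TMM scaling, quasi-likelihood, R 4.3.3) on all 8 libraries as 4 group means, or with sex as a term for both sexes together, and adjusted by Benjamini-Hochberg over 18104 genes. DESeq2 1.42.0 and limma 3.58.1 (voom) were alternatives. Code was tested on simulated data. The genes and lists were chosen with earlier results of these data known. Named were the 7 genes, the 8 genes most and the 4 least like them, the gene most like each, up to 3 genes with the smallest p per list and sex, and up to 2 markers per tissue by mean CPM, of which the text prints those beside a result.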

Additional observations from a re-analysis of the deposited data

Results flagged for a closer look

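The KO effect differed between the sexes for Hoxc5 and Hoxc4 in DESeq2's test of the difference itself, and not in edgeR's. The female minus male difference in log2 fold change was 1.83 for Hoxc5 (adjusted p = 0.0175 by DESeq2, 0.243 by edgeR) and 1.36 for Hoxc4 (adjusted p = 0.0424 by DESeq2, 0.243 by edgeR). In both genes the male KO libraries were the lowest of the 8 and the male WT libraries the highest. DESeq2 also called 3 of the 8 genes of groups 6 to 8 in the same direction for this difference. No library stood far from the other 3 of its genotype in any of the 14 sets of 4 examined, where chance alone would mark about 1 in 20. Each set pooled males and females, so a difference between the sexes can mask a far library and that rate may not hold.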

How the results depend on the processing

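All 7 genes kept a negative log2 fold change in males under the 17 other settings. With no filter on low counts, 39 genes passed in males, among them Hoxc4 and Hoxc5 (2 of the 7), 1 passed for the female minus male KO effect and 629 for female minus male in WT. DESeq2 called 481 genes in males (4 of the 7), 144 in females (1 of the 7), 141 over both sexes (3 of the 7), 362 for the female minus male KO effect (2 of the 7) and 2099 for female minus male in WT. Limma voom called 2 genes for female minus male in WT, and the 4 WT libraries alone gave 1860. Replicate numbers did not pair the genotypes, since deviations of same-numbered libraries correlated at 0.15 between male KO and male WT and at -0.14 between female KO and female WT. Between the sexes they ran in opposite directions, at -0.53 for the KO groups and -0.36 for the WT groups, and the cause was not tested. A replicate block gave 2 genes for female minus male in WT and a median of -1.53 for the 7 in males, and changed no other call. With the mitochondrial share as a term, 2 genes passed in females and 43 for female minus male in WT. The median of the 7 was then -1.64 in males, -0.73 over both sexes, 0.97 for the female minus male KO effect and -0.18 for female minus male in WT, and the sign turned for Hoxd4 over both sexes (0.0433) and Hoxc5 for female minus male in WT (0.0452). Without male WT 1 and female WT 2, chosen after seeing the data, 24 genes passed in females, 1 for the female minus male KO effect and 4 for female minus male in WT. The medians were then -1.30 in males, -1.01 over both sexes and 1.23 for the female minus male KO effect, and Hoxa4 for female minus male in WT was -0.0948. Leaving out 1 library at a time, genes called ranged from 0 to 33 in females, where the 33 came without female WT 2, and from 0 to 9 for the female minus male KO effect, where the 9 came without female WT 2. For female minus male in WT they ranged from 1 to 1735, the most without male KO 1, with 1671 without male KO 2, 30 without female WT 2, 5 without either female KO library and 2 without male WT 2. Of the 7, 0 to 1 passed there, which was Hoxc4 without either male KO library. The median of the 7 ranged from -1.65 to -1.16 in males, from -0.48 to -0.28 in females, from -1.07 to -0.69 over both sexes, from 0.84 to 1.35 for the female minus male KO effect and from -0.63 to -0.15 for female minus male in WT. Hoxd4 over both sexes ranged from -0.41 to 0.0195, with the highest value without male KO 2 and 0.0150 without male WT 2. Hoxa4 for the female minus male KO effect ranged from -0.29 to 0.65, with -0.0371 without male WT 1. For female minus male in WT, Hoxa4 ranged from -0.28 to 0.67 and Hoxb4 from -0.18 to 0.0722, highest without female WT 1. The cause of these shifts was not tested. With a library left out, its group holds a lone library that is assumed to vary like the others. With 2 libraries a group, the SE of the log2 fold changes of the 7 was 0.22 to 0.34 for KO minus WT within a sex, 0.18 to 0.38 over both sexes and 0.31 to 0.47 for the female minus male KO effect, which limits what smaller differences can show.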
